A study of Mus musculus with 9 samples.

Results

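The genes described here were 8 receptors of the TNF receptor superfamily, taken from the table by symbol: *Cd27*, *Tnfrsf1a*, *Tnfrsf1b*, *Tnfrsf4*, *Tnfrsf9*, *Tnfrsf14*, *Tnfrsf18* and *Tnfrsf25*. They were 8 of the 21883 genes in the table, and 13 further receptors of the superfamily were looked at beside them. Their RNA was measured in iNKT cells, T cells with a semi-invariant receptor that sees lipid bound to CD1d, sorted from mouse thymus. WT iNKT cells at stage 2 (CD44 high, NK1.1 low) and at stage 3 (CD44 high, NK1.1 high) came from C57BL/6 mice 6 weeks old. *Med23*-deficient cells at stage 2 came from C57BL/6 mice whose age the labels do not give, in which a *Cre* driven by the *Cd4* promoter removes floxed *Med23* by the double-positive thymocyte stage. *Med23* encodes a subunit of Mediator, the complex that links transcription factors to RNA polymerase II. Each group had 3 libraries, and the sources used here say neither how many mice went into a library nor whether the WT mice carried *Cre* or floxed alleles, so the p-values measure the spread between libraries and no more. *Med23*-deficient stage 3 cells were not analysed here.

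Receptors of this superfamily bind trimeric ligands of the TNF family. Most pass the signal to TRAF adaptors and from there to NF-kB and the MAP kinases, and a subset with a death domain in the cytoplasmic tail can also recruit TRADD or FADD. On T cells, CD27, OX40 (*Tnfrsf4*), 4-1BB (*Tnfrsf9*), GITR (*Tnfrsf18*) and HVEM (*Tnfrsf14*) are known as costimulators that act beside the T cell receptor. TNFR2 (*Tnfrsf1b*) has no death domain, while TNFR1 (*Tnfrsf1a*) and DR3 (*Tnfrsf25*) do.

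The libraries carried the RNA of iNKT cells. The summed FPKM (fragments on a gene, scaled for its length and for the mapped reads) of 4 T cell genes, *Zbtb16* among them, was 387 to 546 over all 9 libraries. The summed level of 5 stage 3 genes was 163 to 194 in WT stage 2, 509 to 585 in WT stage 3 and 138 to 201 in *Med23*-deficient stage 2 cells, and that of 3 stage 2 genes was 97.2 to 132, 23.0 to 35.5 and 137 to 173. *Il2rb* was the highest of the 5 stage 3 genes in each group, and these genes did not move together. Means of *Klrb1c*, *Klrd1* and *Klrk1* were 3.42, 1.47 and 0.26 in *Med23*-deficient cells, against 16.7, 9.49 and 1.45 in WT stage 2, without overlap. *Il2rb* and *Tbx21* overlapped between these groups, at means of 129 and 38.9 against 121 and 29.4. Markers of double-positive thymocytes summed to at most 4.99, of B cells to at most 0.50 (2 of 4 genes in the table), of myeloid cells to at most 2.33 (4 of 5) and of erythroid cells to at most 0.75 (1 of 5). The targeted gene checks the genotype only weakly. *Med23* stood at 5.51, 5.15 and 6.74 FPKM in WT stage 2, at 7.14, 4.44 and 6.12 in WT stage 3 and at 4.80, 3.60 and 3.92 in the libraries labelled *Med23*-deficient. These were below every WT stage 2 value (log2 fold change -0.41, SE 0.18, limma adjusted p = 0.552), but overlapped WT stage 3, and the FPKM of a gene pools all its exons, so a deleted exon is not read by itself. Between 15584 and 17333 genes lay above 0 per library.

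Promoter sequences are shown for *Tnfrsf25*, the receptor that differed most between groups, and for *Cd27* and *Tnfrsf1b*, the highest of the 8. Each is the 250 bases before the RefSeq start (GRCm38.p6, the assembly also called mm10), and for these 3 genes the window ends at, or within 17 bases of, the gene start in the table. RefSeq gives 2 starts for *Tnfrsf25*, and the one at the gene's start in the table was used. Capitals mark matches on either strand to RUNX (TGTGGT), AP-1 (TGANTCA), T-box (AGGTGTGA), ETS (CCGGAAG) or NF-kB letters (GGG, any 2 bases, TTTCC).
*Tnfrsf25*, chr4:152115684-152115933, plus strand: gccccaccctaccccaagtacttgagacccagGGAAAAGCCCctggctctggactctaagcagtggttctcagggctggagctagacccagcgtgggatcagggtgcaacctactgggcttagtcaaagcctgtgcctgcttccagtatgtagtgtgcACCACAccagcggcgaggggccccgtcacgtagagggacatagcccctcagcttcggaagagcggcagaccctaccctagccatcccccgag
*Tnfrsf1b*, chr4:145246871-145247120, minus strand: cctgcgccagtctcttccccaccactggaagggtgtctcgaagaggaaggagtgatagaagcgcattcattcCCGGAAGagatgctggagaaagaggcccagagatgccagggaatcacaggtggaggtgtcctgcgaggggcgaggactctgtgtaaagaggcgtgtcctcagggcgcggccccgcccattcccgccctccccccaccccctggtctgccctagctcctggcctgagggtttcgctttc
*Cd27*, chr6:125237028-125237277, minus strand: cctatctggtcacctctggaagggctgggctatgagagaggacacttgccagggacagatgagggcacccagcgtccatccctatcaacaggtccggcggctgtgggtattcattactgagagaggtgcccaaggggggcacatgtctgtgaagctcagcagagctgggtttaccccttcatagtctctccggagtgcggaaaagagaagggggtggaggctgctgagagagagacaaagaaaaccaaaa
In the *Tnfrsf25* window the NF-kB letters began 218 bases and the RUNX letters 92 bases before the start. Among the 8 receptors, *Tnfrsf25* was the one whose window held RUNX or NF-kB letters, which 14% and 1.41% of 32807 promoters of the same length also hold. The windows compared do not all lie at the gene start in the table. Those of *Tnfrsf4*, *Tnfrsf18*, *Tnfrsf1a*, *Tnfrsf14* and *Tnfrsf9* were set by RefSeq starts 148, 158, 361, 486 and 5593 bases from it. ETS letters, in 6.91% of promoters, were found before *Tnfrsf1b* (178 bases) and *Tnfrsf1a* (10 bases). No window of the 8 held the AP-1 letters (6.75% of promoters) or the T-box letters (1.12%), and none of the 5 motifs was in that of *Cd27*. A match is a description of letters and says nothing of binding.

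Of the 8 receptors, *Tnfrsf25* fell between WT stage 2 and WT stage 3, and it was the only one past a 2-fold change with a p of at most 0.05 (1 of 8, against 3.60% of 20689 genes tested). This rule has the thresholds of the study, but is applied here to log2(FPKM + 1) and the limma p. The study took both from Ballgown. Under an ordinary linear model in the manner of Ballgown, no receptor passed the rule (*Tnfrsf25* unadjusted p = 0.0609). *Tnfrsf1a*, *Tnfrsf1b* and *Tnfrsf18* were higher in WT stage 3 without reaching 2-fold, and the limma p before adjustment was 0.05 or less for 4 of 8 receptors against 13.2% of genes. The WT stage 2 and stage 3 libraries did not overlap for *Tnfrsf1a* and *Tnfrsf1b* (stage 3 higher) and for *Tnfrsf25* and *Tnfrsf9* (stage 3 lower), 4 of 8 against 17.8% of genes. No receptor reached an adjusted p of 0.05 (0 of 8, against 1.67% by limma), by limma or by the Ballgown-style model, which gave 1 receptor, *Tnfrsf1b*, at an unadjusted p of 0.05. Above 0 were the log2 fold changes of 3 of the 8 (46.9% of all genes), and their median was -0.06 (0.01 after scaling to a common upper quartile), beside -0.01 over all genes tested. In bulk RNA, fewer cells that express a receptor and less of its RNA per cell cannot be told apart.

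In *Med23*-deficient stage 2 cells, none of the 8 passed the 2-fold rule against WT stage 2 by limma (0 of 8, against 2.11% of 20674 genes), and the Ballgown-style model passed 1, *Tnfrsf18*. *Cd27* (higher) and *Tnfrsf25* (lower) had a limma p of 0.05 or less before adjustment, 2 of 8 against 9.58% of genes. Groups did not overlap for *Cd27* and *Tnfrsf1a* (higher in *Med23*-deficient cells) and *Tnfrsf25* (lower), 3 of 8 against 14.0%. None reached an adjusted p of 0.05 by either model, where 0.213% of genes did by limma. The log2 fold change was above 0 for 7 of the 8, against 47.3% of all genes, and its median was 0.28 beside -0.01 over all genes. On a TPM scale the median of the 8 was 0.16, where the median of all genes at a mean FPKM of 1 or more was -0.16. That scale divides each library by its summed FPKM, and 1 gene, *Gm23935*, held 62.2% to 71.9% of that sum. The part of this gene in the results on the TPM scale was not tested. Both comparisons use the same WT stage 2 libraries, so their values are set side by side and not counted as separate evidence. The labels do not say whether *Med23*-deficient and WT libraries were prepared or sequenced together. Genotype therefore cannot be told apart from a batch or from age in this comparison.

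**Figure D1:**
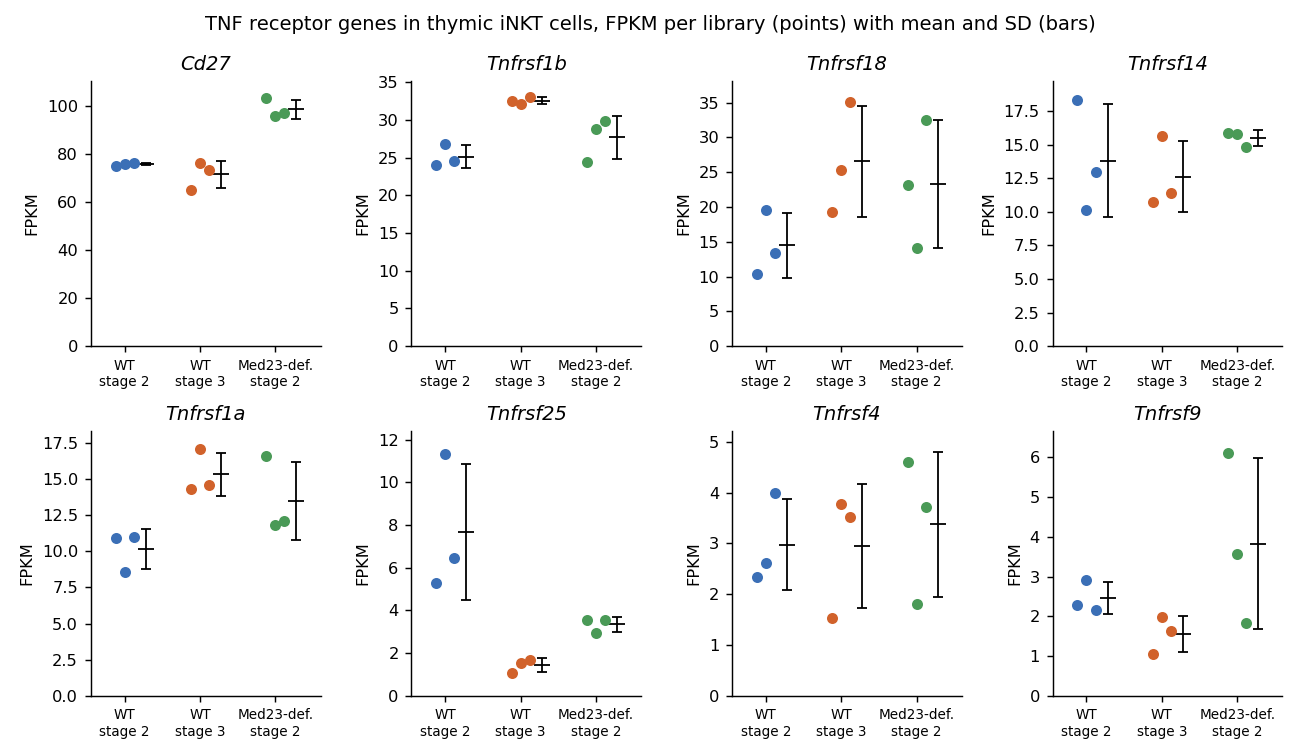
FPKM of each of the 8 receptor genes (y axes, each from 0) by group, 3 libraries in each, with the mean and SD (n = 3) as a bar beside the points. *Tnfrsf25* lies at 1.06 to 1.69 in WT stage 3, below all other libraries, and *Cd27* at 96.08 to 103.33 in *Med23*-deficient cells, above all other libraries.

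*Tnfrsf25* (ENSMUSG00000024793), on the plus strand of chromosome 4 from 152115934 to 152120119 (mm10), encodes DR3, the death-domain receptor for TL1A. Its FPKM was 5.27, 11.31 and 6.45 in WT stage 2, 3.53, 2.92 and 3.57 in *Med23*-deficient stage 2 and 1.06, 1.53 and 1.69 in WT stage 3. The 3 groups followed that order without overlap. The mean was 7.68 ± 3.20 (SD, n = 3) in WT stage 2, 3.34 ± 0.36 in *Med23*-deficient stage 2 and 1.43 ± 0.33 in WT stage 3, so that WT stage 3 was 5.38-fold below WT stage 2. On the log2(FPKM + 1) scale, which understates changes of low genes, the difference from WT stage 2 was -1.79 (SE 0.30, 95% interval -2.53 to -1.04) in WT stage 3, with an unadjusted limma p of 0.00106 and an adjusted p of 0.0561. In *Med23*-deficient cells it was -0.94 (SE 0.28, interval -1.63 to -0.25), with an unadjusted limma p of 0.0153 and an adjusted p of 0.346. That is under 2-fold on this scale, while the mean FPKM was 2.30-fold below WT stage 2. The difference between *Med23*-deficient stage 2 and WT stage 3 cells was not tested. One WT stage 2 library, replicate 2, was the highest of the 9, and without it the differences were -1.50 and -0.66. The call in WT stage 3 passed the adjusted p of 0.05 with a pseudocount of 0.1 or 0.01, after dropping genes of a mean FPKM under 1 or with all 9 libraries in 1 fit, and its 2-fold call was lost under the Ballgown-style model (-1.40, unadjusted p = 0.0609). Adjusted p ranged from 0.0149 to 0.479 over 15 alternatives.

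**Figure D2:**
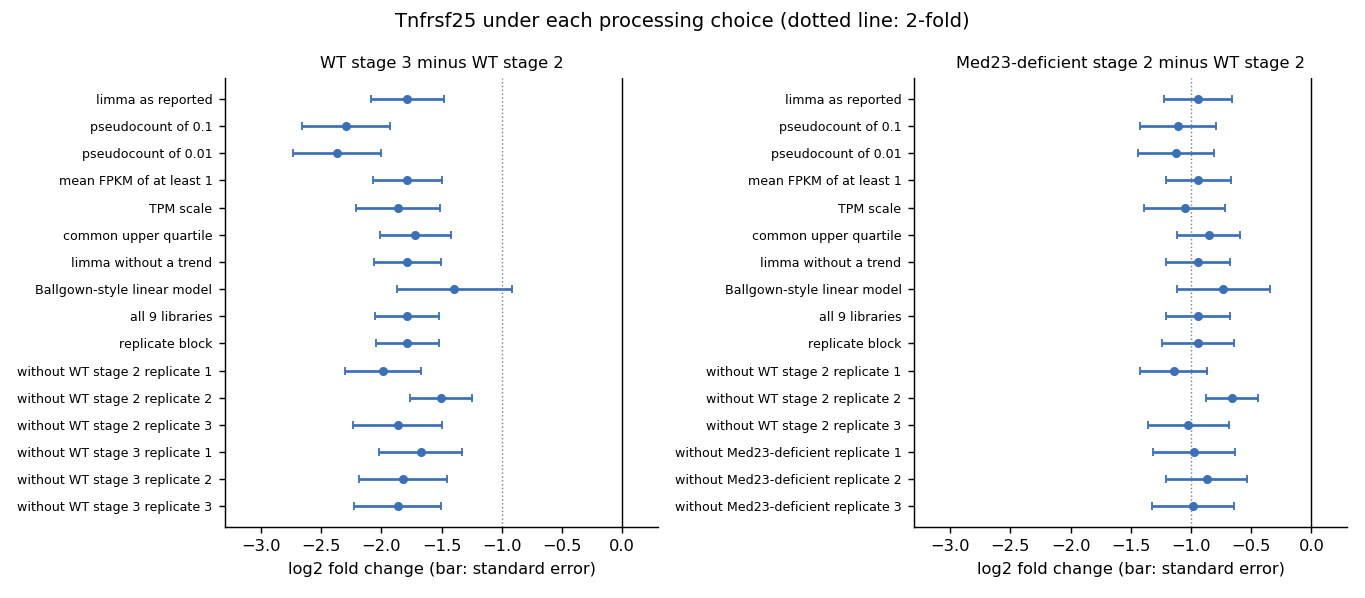
Log2 fold change of *Tnfrsf25* (x axis, with its standard error) for WT stage 3 (left) and *Med23*-deficient stage 2 (right) against WT stage 2 under the reported fit and 15 alternatives (y axis). All estimates lie below 0, from -2.37 to -1.40 on the left and from -1.15 to -0.66 on the right, where 5 of them pass the 2-fold line.

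The other death-domain receptor of the set, TNFR1, is the ubiquitous receptor for TNF. *Tnfrsf1a* was at 10.93, 8.56 and 10.99 FPKM in WT stage 2, at 14.34, 17.05 and 14.58 in WT stage 3 and at 16.63, 11.80 and 12.12 in *Med23*-deficient stage 2 cells. Both latter groups lay above WT stage 2 in every library and overlapped each other. The log2 difference was 0.55 (SE 0.14, limma adjusted p = 0.145) in WT stage 3 and 0.37 (SE 0.18, adjusted p = 0.579) in *Med23*-deficient cells. In WT stage 3, therefore, these 2 receptors differed from WT stage 2 in opposite directions. The mean was 5.38-fold lower for *Tnfrsf25* and 1.51-fold higher for *Tnfrsf1a*. Death-domain receptors outside the set, named here after their values were seen, had lower means in WT stage 3. *Fas* was at a mean of 4.79 FPKM there against 9.40 in WT stage 2, without overlap. *Tnfrsf10b* (1.32 against 1.77) and *Tnfrsf21* (0.77 against 1.42) overlapped between these groups. The opposite directions are thus a description of *Tnfrsf25* and *Tnfrsf1a*, not of death-domain receptors in general.

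TNFR2 binds TNF and lymphotoxin alpha and signals through TRAF2. *Tnfrsf1b* was at 23.97, 26.83 and 24.59 FPKM in WT stage 2 cells, against 32.54, 32.12 and 33.00 in WT stage 3. The stage 3 libraries spanned under 1 FPKM and were all higher, with a ratio of means of 1.30, a log2 difference of 0.36 (SE 0.08) and a limma adjusted p of 0.109. *Med23*-deficient cells, at 24.47, 28.76 and 29.80, overlapped WT stage 2 (0.13, SE 0.11, adjusted p = 0.731) and lay below every WT stage 3 library. On the TPM scale the WT stage 3 difference was 0.26 and lost its unadjusted p of 0.05.

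CD27, the receptor for CD70, supports the survival of activated and memory T cells. *Cd27* was at 75.27, 75.86 and 76.36 FPKM in WT stage 2 cells, against 65.25, 76.23 and 73.36 in WT stage 3. These groups overlapped (-0.08, SE 0.08, limma adjusted p = 0.684), and the sign of the difference turned after scaling to a common upper quartile. In *Med23*-deficient stage 2 cells it was at 103.33, 96.08 and 97.03, above all 6 WT libraries. The mean of 98.8 ± 3.94 (SD, n = 3) was 1.30-fold that of WT stage 2, with a log2 difference of 0.38 (SE 0.07, interval 0.21 to 0.54), an unadjusted limma p of 0.00142 and an adjusted p of 0.133. On the TPM scale the difference was 0.25 and had no unadjusted p under 0.05. *Cd27* took 42.1% to 54.9% of the summed FPKM of the 8 receptors in each library. That sum was 153 ± 4.67 in WT stage 2, 165 ± 16.3 in WT stage 3 and 189 ± 12.6 in *Med23*-deficient cells, and without *Cd27* it was 76.7 ± 4.55, 93.0 ± 10.9 and 90.5 ± 10.3.

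GITR is a costimulator that regulatory T cells hold at a high level and that other T cells raise on activation. *Tnfrsf18* was at 10.39, 19.58 and 13.45 FPKM in WT stage 2, at 19.23, 25.39 and 35.04 in WT stage 3 and at 23.16, 14.11 and 32.51 in *Med23*-deficient cells. Its libraries were spread widely, and 1 WT stage 2 library (replicate 2) lay above the lowest library of each other group. The log2 difference was 0.84 (SE 0.29, interval 0.12 to 1.55, limma adjusted p = 0.288) in WT stage 3 and 0.62 (SE 0.35, interval -0.23 to 1.46, adjusted p = 0.655) in *Med23*-deficient cells. The WT stage 3 difference passed the 2-fold rule when WT stage 2 replicate 2 (1.06) or WT stage 3 replicate 1 (1.04) was left out, and the *Med23*-deficient one under the Ballgown-style model (1.15). The WT stage 3 difference lost its unadjusted p of 0.05 when any of the other 4 libraries was left out (0.62 to 0.85), on the TPM scale and under the Ballgown-style model (1.23, unadjusted p = 0.106).

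OX40 and 4-1BB, costimulators that T cells raise on activation, were the lowest receptors of the set in WT stage 2. In the other groups *Tnfrsf25* had a lower mean than either. *Tnfrsf4* was at 2.33, 2.61 and 3.99 FPKM in WT stage 2, at 1.54, 3.77 and 3.52 in WT stage 3 and at 4.61, 1.81 and 3.71 in *Med23*-deficient cells. All groups overlapped, with log2 differences of -0.04 (SE 0.33, interval -0.85 to 0.77) and 0.10 (SE 0.34, interval -0.72 to 0.93). On the log2(FPKM + 1) scale these leave room for a change near 2-fold either way, and in FPKM for a larger one. *Tnfrsf9* was at 2.29, 2.92 and 2.16 in WT stage 2, at 1.06, 1.97 and 1.64 in WT stage 3 and at 6.10, 3.56 and 1.83 in *Med23*-deficient cells. WT stage 3 lay below WT stage 2 in every library, but the difference (-0.45, SE 0.25, limma adjusted p = 0.530) did not pass the test. The *Med23*-deficient libraries were spread from 1.83 to 6.10 and overlapped WT stage 2 (0.39, SE 0.37, adjusted p = 0.734).

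GITR, OX40 and 4-1BB are also abundant in regulatory T cells, so that cell type's markers were read in the same libraries. *Foxp3*, which defines them, was listed at 0 in every library except WT stage 2 replicate 3 (0.41 FPKM). The 4 markers together summed to 9.11 to 17.25 in WT stage 2, 8.65 to 13.04 in WT stage 3 and 8.92 to 14.73 in *Med23*-deficient cells, most of it *Ikzf2*. Between WT stage 2 and *Med23*-deficient cells these markers did not move together. *Il2ra*, a chain of the IL-2 receptor, was at 0.95 to 1.50 FPKM in WT stage 2 and higher in *Med23*-deficient cells, at 3.40 to 6.57. *Ctla4* was lower, at 0.15 to 1.19 against 0 to 0.05, and *Ikzf2*, at 8.01 to 15.73 against 5.52 to 8.11, had a lower mean with overlap. The part of these markers in the receptor values was not tested.

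HVEM is the receptor for LIGHT and also engages BTLA, an inhibitory receptor. *Tnfrsf14* was at 18.38, 10.11 and 13.00 FPKM in WT stage 2, at 10.75, 15.65 and 11.44 in WT stage 3 and at 15.90, 15.84 and 14.83 in *Med23*-deficient cells. All groups overlapped, with log2 differences of -0.10 (SE 0.24, limma adjusted p = 0.868) and 0.19 (SE 0.21, adjusted p = 0.760).

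**Figure D3:**
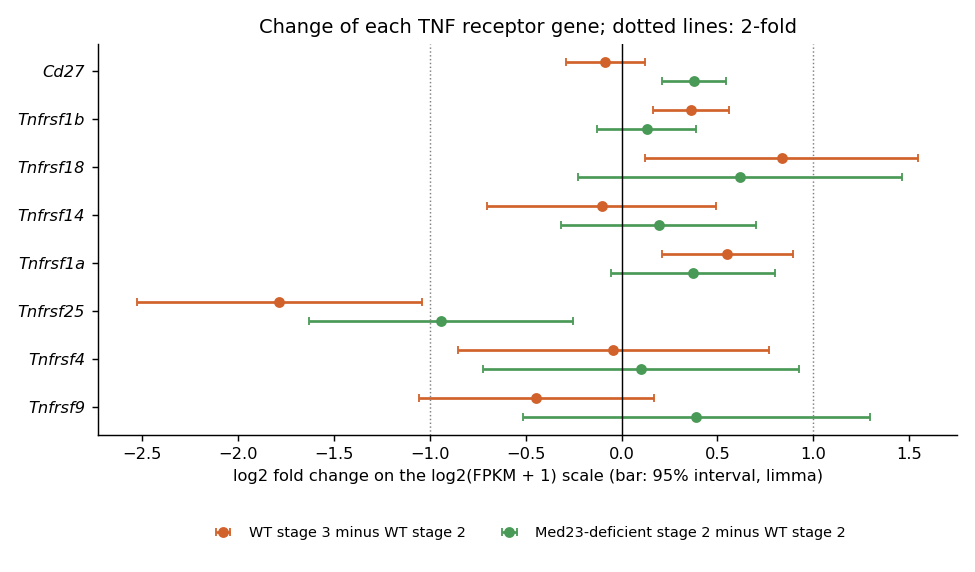
Log2 fold change with its 95% interval (x axis, limma, log2(FPKM + 1) scale) of each receptor gene (y axis) for WT stage 3 and for *Med23*-deficient stage 2 cells, both against WT stage 2. *Tnfrsf25* is lowest in both (-1.79 and -0.94), and its WT stage 3 interval (-2.53 to -1.04) is the one that lies wholly beyond a 2-fold line.

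FPKM are scaled for length, so the receptors can be ordered by level. *Cd27* was highest in all 3 groups, at percentiles of 97.8 to 98.5 among genes above 0, followed by *Tnfrsf1b* and *Tnfrsf18*. In WT stage 2 the order went on with *Tnfrsf14* (13.8), *Tnfrsf1a* (10.2), *Tnfrsf25* (7.68), *Tnfrsf4* (2.98) and *Tnfrsf9* (2.46), and the libraries of neighbours overlapped for all pairs in that order from *Tnfrsf18* down except *Tnfrsf25* and *Tnfrsf4*. *Tnfrsf25* was sixth in WT stage 2 and last in the other groups (1.43 in WT stage 3 and 3.34 in *Med23*-deficient cells), where it overlapped the next gene above it, *Tnfrsf9* and *Tnfrsf4* respectively. Its percentile among genes above 0 was 74.3 in WT stage 2, 43.4 in WT stage 3 and 58.7 in *Med23*-deficient cells.

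On chromosome 4 lie 6 of the receptor genes and on chromosome 6 the other 2, *Cd27* and *Tnfrsf1a*, which sit within 0.13 Mb. The chromosome 4 genes span 10.8 Mb (145213463 to 156028895, mm10) together with 205 genes of the table, and *Tnfrsf4* and *Tnfrsf18* lie 9551 bases apart on the same strand. Their levels were unlike, at 14.5 ± 4.68 FPKM (SD, n = 3) for *Tnfrsf18* and 2.98 ± 0.89 for *Tnfrsf4* in WT stage 2. None of the nearest genes on either side of the 8 receptors passed the 2-fold rule in either comparison. *Plekhg5*, 533 bases before *Tnfrsf25* on the same strand, was at 1.47 ± 0.73 FPKM in WT stage 2 and 1.46 ± 0.59 in WT stage 3, and *Espn*, 211 bases after it on the other strand, at 0.65 ± 0.09 and 0.55 ± 0.32 (these neighbours were chosen after their values were seen). In the table *Tnfrsf9* overlaps *Camta1*, *Cd27* overlaps *Vamp1* and the microRNA gene *Mir8113*, and *Tnfrsf18* overlaps the antisense gene *Gm16008*. Their means were 0.41 to 0.73 FPKM for *Camta1*, 2.89 to 4.997 for *Vamp1*, at most 0.29 for *Mir8113* and at most 0.05 for *Gm16008*. *Vamp1* and *Mir8113* had their highest mean in *Med23*-deficient cells, as *Cd27* did (limma adjusted p = 0.535 and 0.527 against WT stage 2). The part of these overlapping genes in the *Cd27* values was not tested. The library kit keeps strand, but the sources used here do not say how StringTie was set for it, so the split of reads between overlapping genes is uncertain, most for *Tnfrsf9*, the lowest of these receptors.

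The genes whose pattern over the 9 libraries was most like that of *Tnfrsf25*, by the root mean square difference in centred log2(FPKM + 1) among 9654 genes, were *Mir5104* (0.27), *Psmg1* (0.29) and *Pak1* (0.31). *Psmg1* was at 6.88 ± 2.62 in WT stage 2, 3.71 ± 0.66 in *Med23*-deficient stage 2 and 2.28 ± 0.87 in WT stage 3, and *Pak1* at 3.11 ± 0.94, 1.30 ± 0.73 and 0.30 ± 0.01.

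The ligands of these receptors are made by T cells as well as by other cells. Of 10 ligand and counter-receptor genes, 7 were in the table, and those for GITR (*Tnfsf18*), DR3 (*Tnfsf15*) and CD27 (*Cd70*) were not. In WT stage 3, *Tnfsf9* rose and *Lta* fell by the 2-fold rule, 2 of 7 against 3.60% of genes tested, and in *Med23*-deficient cells 2 of 7 passed it against 2.11%, *Tnfsf9* and *Tnfsf14*, and both rose. No ligand gene reached an adjusted p of 0.05 by limma in either comparison, although before adjustment 4 of 7 were at or under 0.05 in each (against 13.2% and 9.58% of all genes), and none did under the Ballgown-style model. Their log2 fold changes had a median of 0.20 in WT stage 3 and 0.53 in *Med23*-deficient cells.

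*Tnfsf14* encodes LIGHT, the ligand of HVEM. It was at 9.04, 12.98 and 14.08 FPKM in WT stage 2, at 17.66, 17.39 and 20.12 in WT stage 3 and at 33.78, 33.46 and 30.13 in *Med23*-deficient stage 2 cells. The 3 groups did not overlap, and the *Med23*-deficient mean of 32.5 ± 2.02 (SD, n = 3) was 2.70-fold that of WT stage 2. The log2 difference was 1.38 (SE 0.17, limma adjusted p = 0.0586, and 0.000176 before adjustment). Its adjusted p ranged from 0.00926 to 0.506 over 15 alternatives, and the 2-fold call held in all of them. In WT stage 3 the difference was 0.59 (SE 0.18, adjusted p = 0.214). *Btla*, the counter-receptor of HVEM, was at 13.69, 12.35 and 18.64 in WT stage 2, at 6.56, 7.08 and 8.63 in WT stage 3 and at 26.05, 21.26 and 22.35 in *Med23*-deficient cells. Each group stood apart from the others, WT stage 3 below and *Med23*-deficient cells above WT stage 2. The log2 differences were -0.90 (SE 0.19, limma adjusted p = 0.0904) and 0.62 (SE 0.17, adjusted p = 0.299), both under 2-fold on this scale, while the ratio of means put WT stage 3 2.01-fold lower. The WT stage 3 difference passed the 2-fold rule once WT stage 2 replicate 2 (-1.019) or WT stage 3 replicate 3 (-1.004) was dropped. Its adjusted p ranged from 0.0347 to 0.607 over 15 alternatives, and was under 0.05 after dropping genes of a mean FPKM under 1 (0.0473) and with all 9 libraries in 1 fit (0.0347).

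**Figure D4:**
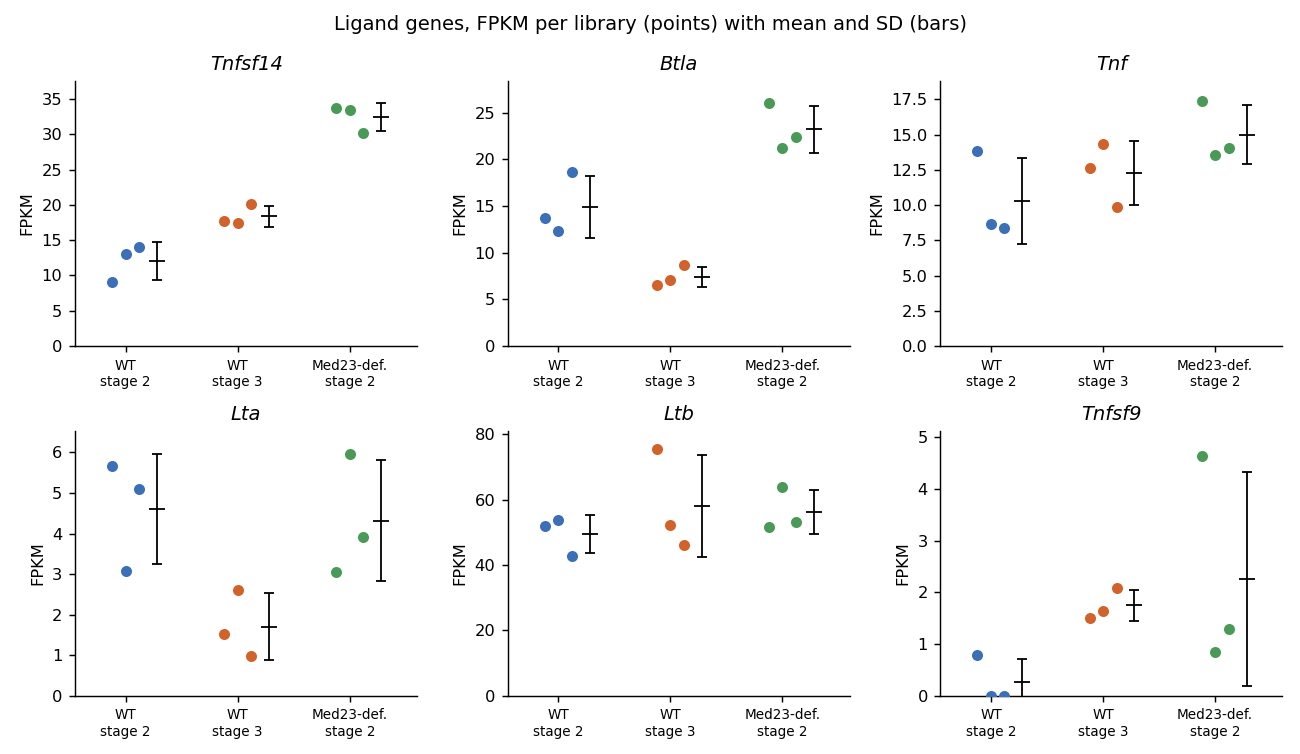
FPKM of 6 ligand and counter-receptor genes (y axes, each from 0) in the 3 libraries of each group, with the mean and SD (n = 3) as a bar; an SD bar that would pass below 0 is cut there. *Tnfsf14* separates the groups, from 9.04 to 14.08 in WT stage 2 to 30.13 to 33.78 in *Med23*-deficient cells.

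*Lta*, which encodes lymphotoxin alpha, was at 5.66, 3.08 and 5.10 FPKM in WT stage 2 cells, against 1.53, 2.61 and 0.97 in WT stage 3, a log2 difference of -1.07 (SE 0.33, limma adjusted p = 0.227). It lost the 2-fold call or its p without WT stage 2 replicate 1 (-0.93), WT stage 2 replicate 3 (-0.99) or WT stage 3 replicate 3 (-0.86) and under the Ballgown-style model (-1.21). In *Med23*-deficient cells it was at 3.06, 5.97 and 3.92 and overlapped WT stage 2. The 4-1BB ligand gene *Tnfsf9* was listed at 0.79, 0 and 0 in WT stage 2, at 1.51, 1.64 and 2.09 in WT stage 3 and at 4.64, 0.85 and 1.30 in *Med23*-deficient cells. The log2 differences were 1.17 (SE 0.29, limma adjusted p = 0.137) and 1.25 (SE 0.49, adjusted p = 0.492), and with WT stage 2 near 0 their size depends on the pseudocount. The WT stage 3 call was lost under the Ballgown-style model (0.53). The call in *Med23*-deficient cells was lost in 5 of 15 alternatives, which were that model (0.96) and the fits without WT stage 2 replicate 2 or 3 (1.11 each), *Med23*-deficient replicate 1, its highest library (0.76), or *Med23*-deficient replicate 3 (1.41). *Tnf* was at 13.80, 8.66 and 8.39 in WT stage 2, at 12.62, 14.32 and 9.84 in WT stage 3 and at 17.39, 13.55 and 14.01 in *Med23*-deficient cells, with overlap throughout (0.25, SE 0.23, and 0.53, SE 0.21, adjusted p = 0.669 and 0.509). *Ltb*, the membrane partner of lymphotoxin alpha, was the highest ligand gene, at 42.80 to 53.60 in WT stage 2, 46.04 to 75.53 in WT stage 3 and 51.58 to 63.83 in *Med23*-deficient cells, and its groups overlapped. *Tnfsf4*, the OX40 ligand gene, was listed at 0 except in WT stage 2 replicate 1 (0.25).

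Among the 20 other receptors of the superfamily listed, 13 were in the table. In WT stage 3, 1 of the 13 passed the 2-fold rule, against 3.60% of genes. This was *Tnfrsf13b*, which encodes TACI, a receptor for BAFF and APRIL best known from B cells. It fell from 6.23, 5.15 and 6.68 FPKM in WT stage 2 to 0.16, 0.78 and 1.32 in WT stage 3, a log2 difference of -2.05 (SE 0.32) with a limma adjusted p of 0.0445. Every B cell marker in the table was at or below 0.50 FPKM in each of these libraries. *Med23*-deficient cells, at 4.14, 2.43 and 2.67, lay between the WT groups without overlap (-0.80, SE 0.23, adjusted p = 0.311). The order of the 3 groups was thus that of *Tnfrsf25*, a likeness noted after the values were seen. The adjusted p of the stage difference ranged from 0.0123 to 0.376 over 15 alternatives and was above 0.05 in each fit that left out a library. It was also above 0.05 with a pseudocount of 0.1 (0.0736) or 0.01 (0.0763) and at a common upper quartile (0.0573). The same held with a replicate block (0.136) and under the Ballgown-style model (0.376). None of the 13 passed the 2-fold rule in *Med23*-deficient cells by limma (against 2.11% of genes) or by the Ballgown-style model, and 4 of 13 had a limma p of 0.05 or less before adjustment, against 9.58%. The 13 had a median of -0.16 in WT stage 3 and -0.08 in *Med23*-deficient cells.

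The 28 adaptors and regulators of the pathway, among them the TRAFs, TRADD, RIPK1 and A20 (*Tnfaip3*), were all in the table, and none passed the 2-fold rule by limma in either comparison. Before adjustment, 3 of 28 had a limma p of 0.05 or less in WT stage 3 and 2 of 28 in *Med23*-deficient cells, beside 13.2% and 9.58% of all genes, and 1 passed the 2-fold rule in WT stage 3 under the Ballgown-style model (*Siva1*). *Ripk1*, the kinase that TNFR1 and DR3 recruit through TRADD, is named here after its values were seen. It was at 11.06, 10.68 and 12.27 FPKM in WT stage 2, at 9.81, 13.21 and 11.43 in WT stage 3 and at 5.50, 5.41 and 6.48 in *Med23*-deficient cells. The *Med23*-deficient libraries lay below all WT libraries (log2 difference -0.86, SE 0.13, limma adjusted p = 0.0908). Of the 15 alternatives, the fit of all 9 libraries was the one in which *Ripk1* passed an adjusted p of 0.05. Medians of the 28 were -0.09 and -0.10.

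**Figure D5:**
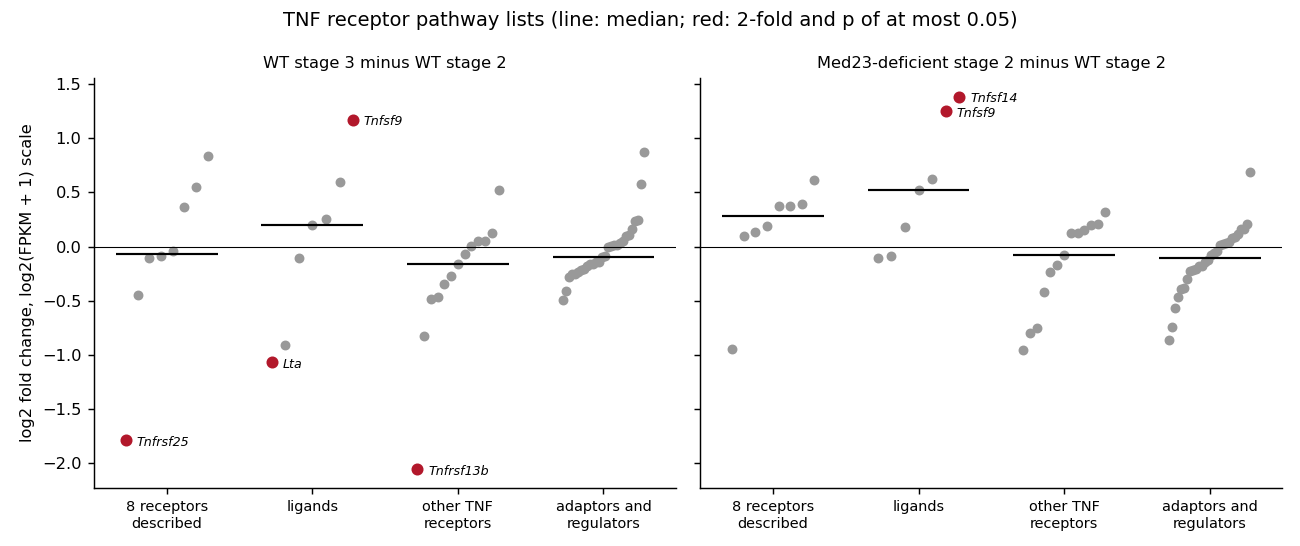
Log2 fold change (y axis, log2(FPKM + 1) scale) of the 8 receptors, 7 ligand and counter-receptor genes, 13 other receptors and 28 adaptors and regulators (x axis) for WT stage 3 (left) and *Med23*-deficient stage 2 (right) against WT stage 2, with the median of each list as a line and genes past 2-fold with p of at most 0.05 in red. *Tnfrsf25*, *Lta*, *Tnfsf9* and *Tnfrsf13b* are red on the left and *Tnfsf14* and *Tnfsf9* on the right, and no adaptor or regulator is.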

How the data were processed

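RNA of sorted thymic iNKT cells had been sequenced in 9 libraries. The authors used a strand-keeping low-input total RNA kit, trimmed the reads with Trimmomatic 0.36, aligned them to mm10 with HISAT2, kept reads hitting at most 2 loci and quantified GENCODE genes with StringTie. The authors deposited FPKM for 21883 genes with replicates separate. Read depth is unknown, since low values were not whole multiples of a read, so no counting interval is given. Libraries were grouped by genotype and stage from their labels.

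Here log2(FPKM + 1) was tested with limma 3.58.1 (R 4.3.3, mean-variance trend, 2-sided) over genes above 0 in at least 1 of the 6 libraries compared, with 20689 genes in the comparison of WT stage 3 and 20674 in that of *Med23*-deficient cells, each against WT stage 2. P-values were adjusted by Benjamini-Hochberg over all genes tested. Calls used a fold of at least 2 with an unadjusted p of at most 0.05, the thresholds of the study, and an adjusted p of 0.05. Receptors, their ligands, other receptors and signalling genes were chosen with earlier results of these data known. All receptors and ligands are named, and other listed genes where a threshold was passed, apart from those said to be chosen afterwards. Promoters were from RefSeq, which held a start for all 8 genes, though not always at the gene start in the table. Alternatives were other pseudocounts, filters and scalings, no trend, a Ballgown-style linear model with a library-size covariate, all 9 libraries, a replicate block and each library left out. The fit was also run on simulated data. The shifts there were larger than those of the 8 receptors, so that run does not measure how readily such changes are found. Figures were made with Python 3.11.15 and matplotlib 3.10.9.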

Additional observations from a re-analysis of the deposited data

How the results depend on the processing

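The fall of *Tnfrsf25* in WT stage 3 kept its direction in all 15 alternatives. By 2-fold and p, 1 receptor was called in WT stage 3, 0 under the Ballgown-style model and 1 to 2 with a library left out. By adjusted p, 0 were called, and 1 (*Tnfrsf25*) with pseudocounts of 0.1 or 0.01, after dropping genes under a mean FPKM of 1 and with all 9 libraries. In *Med23*-deficient cells 0 were called by 2-fold and p, 1 with either pseudocount, on the TPM scale (*Tnfrsf25*) and under the Ballgown-style model (*Tnfrsf18*), and 0 to 1 with a library left out (*Tnfrsf25* without WT stage 2 replicate 1 or 3). Of the 48 pathway genes tested, 3 were called in WT stage 3 (2 to 5 with a library left out, the most without WT stage 2 replicate 2) and 2 in *Med23*-deficient cells (4 with either pseudocount, 1 under the Ballgown-style model, 1 to 2 with a library left out). By adjusted p, 1 and 0 of the 48 were called, 0 to 2 and 0 to 2 over the alternatives. The cause of these shifts was not tested. Signs turned for uncalled genes. In WT stage 3, *Cd27* reached 0.0014 at a common upper quartile, *Tnfrsf4* 0.0246 there and 0.37 under the Ballgown-style model (-0.21 to 0.25 with a library left out), *Tnfrsf14* -0.29 to 0.11 and *Ltb* -0.0044 to 0.35 with a library left out, and *Tnf* -0.19 under the Ballgown-style model. In *Med23*-deficient cells *Tnfrsf14* reached -0.0135 under that model, and *Tnfrsf4* and *Lta* spanned -0.11 to 0.39 and -0.298 to 0.0923 with a library left out. Over all genes, the 745 and 437 calls by 2-fold and p became 1423 and 971 with a pseudocount of 0.1 and 1452 and 974 with 0.01. The 346 and 44 calls by adjusted p became 600 and 162 with all 9 libraries, 5 and 1 under the Ballgown-style model, and 22 to 137 and 1 to 8 with a library left out. In addition, the 346 became 224 on the TPM scale, and the 44 became 77 with a pseudocount of 0.01 and 143 without genes under a mean FPKM of 1. The TPM scale moved the median of the genes left by that filter from -0.05 to -0.14 in WT stage 3 and from -0.05 to -0.16 in *Med23*-deficient cells. Most of the sum that sets this scale was *Gm23935* in every library.

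The labels do not say whether libraries with the same replicate number share animals or a batch. Nor do they say whether WT and *Med23*-deficient libraries were made together. Deviations of libraries with the same number correlated at 0.08, 0.03 and 0.16 between the WT stages, where each library correlated best with its own number, a hint from the data and not the design, and at 0.03, 0.0043 and 0.14 in the other comparison, where not every one did. With the replicate number as a block, *Tnfrsf25* stayed at -1.79 in WT stage 3 (adjusted p = 0.134) and the receptor calls by 2-fold and p stayed at 1 and 0, while calls by adjusted p over all genes came to 19 and 0. With 3 libraries a group and unknown depth, an absence of a call does not show that a receptor was unaltered.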
